A study of Mus musculus with 8 samples.

Results

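The genes of the cohesin complex were followed across all 8 libraries of the series. They are the 9 genes, of 54532 listed, whose symbol is that of a core cohesin subunit. The meiotic set is Rec8, Rad21l, Stag3 and Smc1b, and the mitotic set is Rad21, Smc1a, Smc3, Stag1 and Stag2. RNA had been sequenced from spermatocytes of C57BL/6J mice that were MFN2 cKO (Mfn2 loxp/loxp with Stra8-Cre) or MFN2 WT (Mfn2 loxp/loxp without Cre, with heterozygous floxed littermates also used as controls in the study). Cells labelled P (pachytene) or L/Z (leptotene/zygotene) were taken at postnatal day (PD) 24 and PD 52, and each combination of stage, genotype and age had 1 library. The Cre is driven by the Stra8 promoter, which is active in germ cells from the spermatogonial stage on, and it removes exon 6 of Mfn2, a gene for a mitochondrial fusion protein. The cells had been separated by sedimentation through a BSA gradient and judged by diameter and shape, so each library is a bulk sample.

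Cohesin is a ring of proteins that holds sister chromatids together. An SMC1 and an SMC3 subunit form the arms of the ring, a kleisin closes it, and a STAG protein binds the kleisin. Dividing somatic cells use SMC1A, the kleisin RAD21 and STAG1 or STAG2. Germ cells in meiosis add SMC1B, the kleisins REC8 and RAD21L, and STAG3, and these complexes lie along the chromosome axes on which homologues pair. SMC3 is the partner of both SMC1 forms, so it is counted as mitotic here by its origin and not because meiotic complexes lack it. A kleisin is cut by separase when chromatids part, and REC8 near centromeres is shielded from it until the last meiotic division.

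Reads counted on genes ranged from 14340665 to 20379950 per library. Mfn2, the targeted gene, was at 41.8% to 80.5% of the MFN2 WT level in the MFN2 cKO library of each pair, counted over the whole gene and not over exon 6 alone. The labelled stages were checked against lists of marker genes, none of which was listed at 0 in any library. Markers counted here as higher or lower are those that limma called at an adjusted p under 0.05, in the fits described below. The check went against the L/Z label in part. Of 9 tested leptotene and zygotene markers, 6 (Hormad1, Spata22, Sycp3, Meioc, Hormad2 and Meiob) were higher in the libraries labelled P and 1 (Dmc1, the meiotic recombinase) was lower. Prdm9 (log2 difference -0.55, limma adjusted p = 0.055) and Rec114 (-0.27, adjusted p = 0.43) were also below 0, without a call. The summed FPKM of the 10 markers was 73.6 to 185 in L/Z and 169 to 219 in P. Of 8 pachytene markers, 3 were higher in P, namely Pou5f2 (log2 difference 3.31), Piwil1 (3.09) and Mybl1 (0.76), and 1 was lower, Cdc25c (-0.88). Their sums were 2092 to 3234 in L/Z and 2596 to 3905 in P, most of it from Ldhc, which was not called. Markers of round and elongating spermatids were called lower in P for 9 of 10 and higher at PD 52 for 9 of 10, and by sign alone it was 10 of 10 in each. Their sums ran from 105 to 4693 in P and from 375 to 19545 in L/Z. Sertoli cell markers were higher in P for 8 of 8 (21.4 to 199 in L/Z, 185 to 614 in P) and lower at PD 52 for 6. Macrophage markers were lower in P for 7 of 8 (21.9 to 174 in L/Z, 9.24 to 48.8 in P), and peritubular myoid markers for 4 of 4 tested (46.5 to 160 in L/Z, 5.11 to 32.5 in P). Leydig cell markers were above 0 in MFN2 cKO minus MFN2 WT for 8 of 8, of which 4 were called (20.7 to 261 in MFN2 WT, 102 to 666 in MFN2 cKO). Spermatogonial markers were higher in P for 1 and lower for 3 of 10 (53.8 to 211 in L/Z, 60.3 to 126 in P). The part of these other cells in the results that follow was not tested. P and L/Z are therefore used as the labels of the libraries.

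The start regions of the meiotic subunit genes and of Smc3 are shown because Rec8, Smc1b and Smc3 were all lower in the libraries labelled P than in those labelled L/Z. The RefSeq table on GRCm38.p6 held the promoter of 7 of the 9 genes, all but Rad21 and Stag2. Each line runs 5' to 3' from 120 bases before the annotated start to 10 bases after it, and capitals mark TCCCGC or its complement GCGGGA, the core of the motif that E2F factors bind.
Rec8, chr14:55618046-55618175, forward strand: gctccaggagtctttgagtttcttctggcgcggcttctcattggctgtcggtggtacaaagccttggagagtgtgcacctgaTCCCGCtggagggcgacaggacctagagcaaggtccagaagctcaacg
Smc1b, chr15:85131948-85132077, reverse strand: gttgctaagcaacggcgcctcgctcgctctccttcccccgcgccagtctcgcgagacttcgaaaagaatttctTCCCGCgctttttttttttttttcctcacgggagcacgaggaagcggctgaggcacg
Stag3, chr5:138280389-138280518, forward strand: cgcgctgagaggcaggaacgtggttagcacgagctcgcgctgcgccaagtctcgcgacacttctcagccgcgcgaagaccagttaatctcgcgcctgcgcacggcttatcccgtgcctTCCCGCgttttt
Rad21l, chr2:151668524-151668653, reverse strand: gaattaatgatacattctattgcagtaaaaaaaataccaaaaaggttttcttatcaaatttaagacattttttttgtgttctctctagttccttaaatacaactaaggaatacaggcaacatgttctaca
Smc3, chr19:53600276-53600405, forward strand: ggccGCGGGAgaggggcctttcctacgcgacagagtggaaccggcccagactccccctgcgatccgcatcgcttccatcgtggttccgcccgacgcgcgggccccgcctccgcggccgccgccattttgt
Among the 7 promoters, each of 250 bases before and 50 after the start, 6 held TCCCGC on either strand. Of all 32851 promoters of this length 20.0% held it, and of those with at least 55% G and C 39.2% did. Rec8, Smc1b and Stag3 were among the 6, while Rad21l was the exception and had 29.0% G and C against 58.3% to 65.0% in the other promoters shown. The motif of 4 genes (Smc1b, Stag3, Stag1 and Smc1a) follows a T, so that its first 3 letters are also part of a TTCC, the ETS core GGAA on the other strand. The E-box CACGTG was found in Stag3 alone (7.15% of all promoters), and CNCCTCAG, a motif known for STRA8, was found in 0 of the 7 (7.94%). The MYB core AACNGTC (8.01%), the CRE TGACGTCA (1.79%) and TATAAA (13.6%) were found in 0, the CCAAT box ATTGG in 6 (37.4%), GGAA in 7 (96.0%), CCGCCC in 4 (35.7%) and the NRF1 motif in 2 (4.60%). Of the promoters with at least 55% G and C, 68.5% held CCGCCC, 9.30% the NRF1 motif, 33.7% ATTGG, 94.3% GGAA and 10.2% CACGTG. These 10 motifs were chosen after the levels had been seen, and a match is a description of the sequence only.

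Stag3 was the most abundant subunit gene in every library, and Smc1b came next in every library. Values are FPKM, fragments per kilobase of each gene after adjustment for library size. The length is that of all exons of the gene together, such as 11781 bases over 17 transcripts for Stag1 and 1659 over 2 for Rad21l. It need not be that of the transcripts expressed, so ranks and ratios of different genes are approximate. Stag3 (chr5:138280240-138312393, forward strand), the meiotic STAG protein, had 97.8 FPKM in L/Z MFN2 WT, 81.7 in L/Z MFN2 cKO, 109 in P MFN2 WT and 94.3 in P MFN2 cKO at PD 24. At PD 52 its level in the same order was 114, 107, 97.0 and 109 FPKM. It was the steadiest of the 9 genes, its highest level being 1.39 times its lowest.

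Smc1b (chr15:85064689-85131964, reverse strand), the meiotic SMC1, had 67.7 and 62.8 FPKM in L/Z and 48.1 and 37.8 in P at PD 24, for MFN2 WT and MFN2 cKO. At PD 52 it had 79.2 and 81.2 FPKM in L/Z and 41.3 and 58.5 in P. All 4 L/Z values lay above all 4 P values. Rec8 (chr14:55618037-55625395, forward strand), the kleisin that persists to the second division, varied more. It had 33.4 and 27.0 FPKM in L/Z and 19.3 and 12.7 in P at PD 24, and 56.7 and 58.1 in L/Z and 36.6 and 25.9 in P at PD 52. The 2 L/Z libraries at PD 52 were the highest, and P MFN2 cKO at PD 24 was the lowest.

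Rad21l (chr2:151645404-151668533, reverse strand), the kleisin of early prophase, was the scarcest meiotic gene, with 22 to 154 reads in a library. Its level was 4.91 and 4.89 FPKM in L/Z and 2.33 and 1.65 in P at PD 24, and 2.17 and 1.07 in L/Z and 1.54 and 0.914 in P at PD 52. In this gene the 2 L/Z libraries at PD 24 stood above the other 6.

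The mitotic genes were lower than Stag3 and Smc1b throughout. Rad21 (chr15:51962240-51991747, reverse strand), the mitotic kleisin, had 24.7 and 27.0 FPKM in L/Z and 18.2 and 23.1 in P at PD 24, and 23.0 and 21.4 in L/Z and 15.6 and 15.8 in P at PD 52. Smc3 (chr19:53600398-53645833, forward strand), the shared arm, had 23.2 and 25.0 FPKM in L/Z and 11.7 and 12.7 in P at PD 24, and 24.6 and 23.1 in L/Z and 11.4 and 15.0 in P at PD 52. For Smc3 the L/Z libraries held to a narrow band well above the P libraries, with no overlap.

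Stag2 (chrX:42149317-42277185, forward strand), a mitotic STAG protein, likewise had 6.26 to 7.05 FPKM in the L/Z libraries and 3.12 to 3.78 in the P libraries. It shares 28 exon bases, 0.338% of its length, with a gene on the other strand. Stag1 (chr9:100597798-100959375, forward strand), the other mitotic STAG protein, had 6.79 and 8.31 FPKM in L/Z and 6.59 and 7.26 in P at PD 24, and 5.54 and 3.69 in L/Z and 5.41 and 4.90 in P at PD 52. Smc1a (chrX:152016428-152062694, forward strand), the mitotic SMC1, had 5.58 and 6.48 FPKM in L/Z and 3.89 and 4.55 in P at PD 24, and 1.89 and 2.15 in L/Z and 1.58 and 2.46 in P at PD 52. In both Stag1 and Smc1a every PD 24 library was above every PD 52 library.

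Behind Stag3 and Smc1b the order was less fixed. Rec8 and Rad21 each held a rank of 3 to 5 and Smc3 of 4 or 5, and the counting intervals of neighbours overlapped for Rec8 and Rad21 in P MFN2 WT and L/Z MFN2 cKO at PD 24, and for Rec8 and Smc3 in P MFN2 cKO and L/Z MFN2 cKO at PD 24. The intervals of Rad21 and Smc3 overlapped in each L/Z library and in P MFN2 cKO at PD 52. Rad21l and Smc1a could not be told apart by their intervals in L/Z MFN2 WT at either age and in P MFN2 WT at PD 52. Such intervals cover counting error only, and with 1 library for each group there is no spread between animals.

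**Figure D1:**
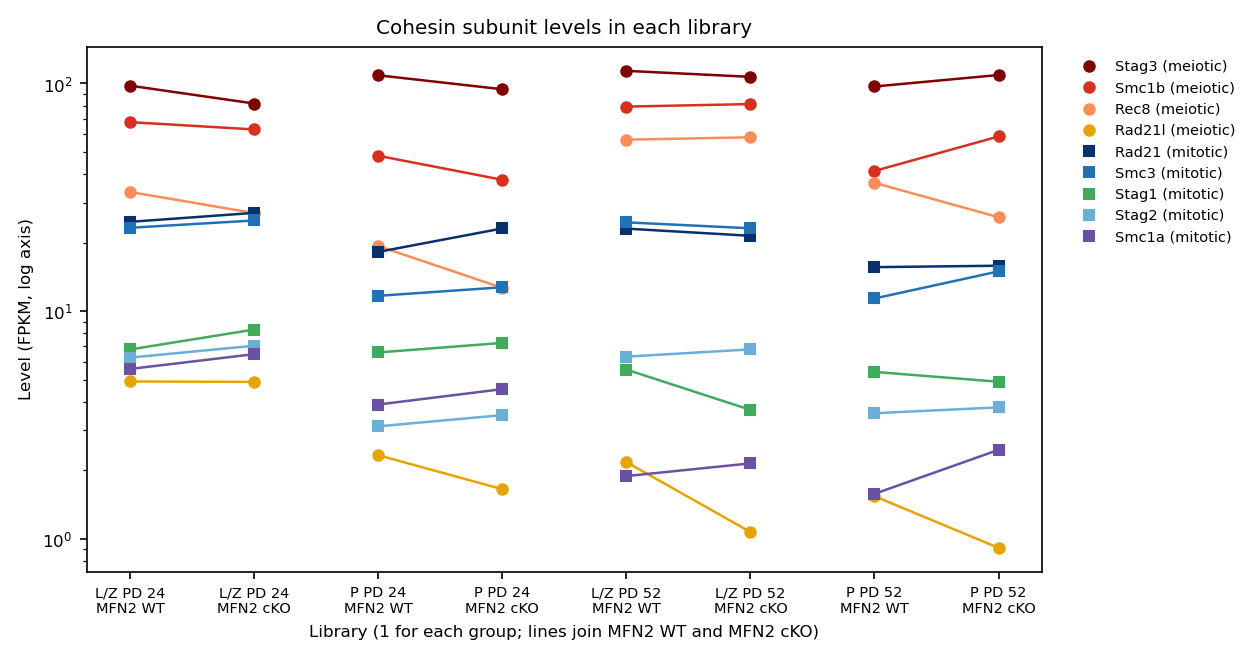
FPKM of the 9 cohesin subunit genes (log axis) in each of the 8 libraries, with circles for meiotic and squares for mitotic subunits and lines that join MFN2 WT and MFN2 cKO of the same stage and age. Stag3 (81.7 to 114 FPKM) and Smc1b (37.8 to 81.2 FPKM) lie above all other subunits in every library, and the lowest value is that of Rad21l in P MFN2 cKO at PD 52 (0.914 FPKM).

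Within each library the meiotic set outweighed the mitotic set. The summed FPKM of the 4 meiotic genes was 3.06 times that of the 5 mitotic genes in L/Z MFN2 WT at PD 24, 2.39 times in L/Z MFN2 cKO, 4.10 times in P MFN2 WT and 2.86 times in P MFN2 cKO. At PD 52 the ratio in the same order was 4.10, 4.32, 4.70 and 4.63. At PD 24 the ratio was lower in MFN2 cKO at both stages, and at PD 52 the values of MFN2 cKO and MFN2 WT were close. With geometric means in place of sums the P pair at PD 52 differed as well, with a log2 ratio of 1.97 in MFN2 WT and 1.62 in MFN2 cKO. All 8 ratios were above 1, and they stayed above 1 with geometric means, with the most abundant subunit of each set left out and with Smc3 left out.

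The balance differed between the parts of the ring. Smc1b over Smc1a, the 2 SMC1 forms, was 12.1, 9.70, 12.4 and 8.30 at PD 24 in L/Z MFN2 WT, L/Z MFN2 cKO, P MFN2 WT and P MFN2 cKO, and 41.9, 37.8, 26.2 and 23.8 at PD 52. Every PD 52 library thus had a higher share of the meiotic SMC1 than every PD 24 library. Stag3 over the sum of Stag1 and Stag2 was 7.49, 5.32, 11.2 and 8.77 at PD 24 and 9.59, 10.2, 10.8 and 12.6 at PD 52.

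Among the kleisins the meiotic form was not always ahead. Rec8 over Rad21 was 1.35, 0.998, 1.06 and 0.548 at PD 24 and 2.46, 2.71, 2.35 and 1.63 at PD 52. P MFN2 cKO at PD 24 was the library in which Rad21 clearly exceeded Rec8, and there Rad21 made up 61.7% of the summed FPKM of the 3 kleisins, Rec8 33.8% and Rad21l 4.42%. In L/Z MFN2 cKO at PD 52 the shares were 26.6%, 72.1% and 1.33%. Smc3 was below the sum of Smc1a and Smc1b in every library, at 0.225 to 0.361 of it.

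**Figure D2:**
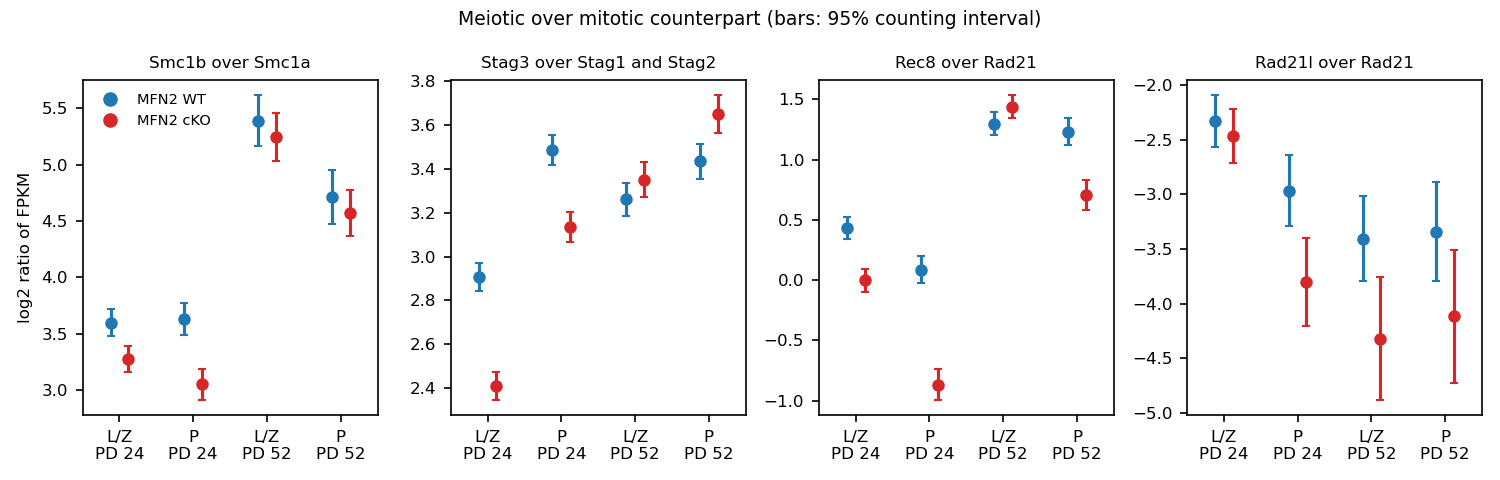
The log2 ratio of the FPKM of each meiotic gene to its mitotic counterpart in each library, with 95% counting intervals, MFN2 WT in blue and MFN2 cKO in red (each panel has its own vertical scale). For Smc1b over Smc1a all PD 52 points (log2 ratio 4.57 to 5.39) lie above all PD 24 points (3.05 to 3.63), and Rad21l over Rad21 is lower in MFN2 cKO in each of the 4 pairs.

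The comparison of MFN2 cKO with MFN2 WT asked whether loss of MFN2 in male germ cells goes with a change in cohesin genes. At PD 24 the sets lay on opposite sides of 0, with all 4 meiotic genes lower and all 5 mitotic genes higher in MFN2 cKO, in P and in L/Z alike and under each scaling tried, although Rad21l in L/Z differed by only -0.0048. The median change of all genes was itself -0.095 in P and 0.077 in L/Z, beside medians of 0.13 and 0.15 for the mitotic genes and -0.34 and -0.18 for the meiotic genes. Changes are given as the difference of log2(FPKM + 1), a scale that understates changes of genes with low FPKM, with 95% intervals from the reads. In P spermatocytes at PD 24 the change was -0.57 (-0.70 to -0.44) for Rec8, -0.34 (-0.41 to -0.27) for Smc1b, -0.20 (-0.24 to -0.16) for Stag3 and -0.33 (-0.67 to 0.021) for Rad21l. In the same pair it was 0.33 (0.23 to 0.42) for Rad21, and 0.12 to 0.18 for the other mitotic genes. The L/Z pair at PD 24 had a narrower range, from -0.30 for Rec8 to 0.26 for Stag1. Rec8, Smc1b, Rad21l and Rad21 were nearer to 0 there than in P, while Stag3 (-0.26), Stag1 and Stag2 (0.15) were further from it.

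Markers of other cells differed between the same libraries. The summed FPKM of the spermatid markers at PD 24 was 1220 in P MFN2 WT and 105 in P MFN2 cKO, and 2429 and 375 in L/Z. At PD 52 it was 4693 and 2130 in P but 10541 and 19545 in L/Z, so the L/Z pair had the opposite order there. Over the 4 pairs the genotype difference was below 0 for 10 of 10 spermatid markers (median log2 difference -1.37) and above 0 for 8 of 8 macrophage markers (median 1.38), although limma called 0 of either list. It was above 0 for 8 of 8 Leydig cell markers as well (median 1.84), and limma called 4 of these, beside 0.137% of all tested genes. In a fit with additive terms for genotype, stage and age, and no block of pairs, the genotype difference was -0.33 for Rec8 (limma adjusted p = 0.745) and -0.34 for Rad21l (0.823). With the spermatid marker sum as a further term in that fit it was -0.16 for Rec8 (limma adjusted p = 0.953) and -0.57 for Rad21l (limma adjusted p = 0.703).

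At PD 52 the sets were not divided in this way. In P spermatocytes Smc1b was 0.49 (0.42 to 0.57) higher in MFN2 cKO, Smc3 0.37 (0.25 to 0.48) higher and Smc1a 0.42 (0.22 to 0.63) higher, while Rec8 was -0.49 (-0.59 to -0.38). In L/Z spermatocytes Stag1 was -0.48 (-0.60 to -0.36) and Rad21l -0.62 (-1.01 to -0.20), and Rec8 (0.035) and Smc1b (0.037) had intervals that included 0 and turned to -0.064 and -0.063 with libraries scaled to total reads. Rad21l was lower in MFN2 cKO in 4 of 4 pairs, and Smc1a and Stag2 were higher in 4 of 4. On this scale 0 of the 9 genes changed by 2-fold in any pair, against 8.08% of all genes in P at PD 24, 10.5% in L/Z at PD 24, 11.0% in P at PD 52 and 7.95% in L/Z at PD 52. In FPKM alone, with nothing added, Rad21l in L/Z MFN2 cKO at PD 52 was at 0.493 times its MFN2 WT level, on 26 and 54 reads.

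**Figure D3:**
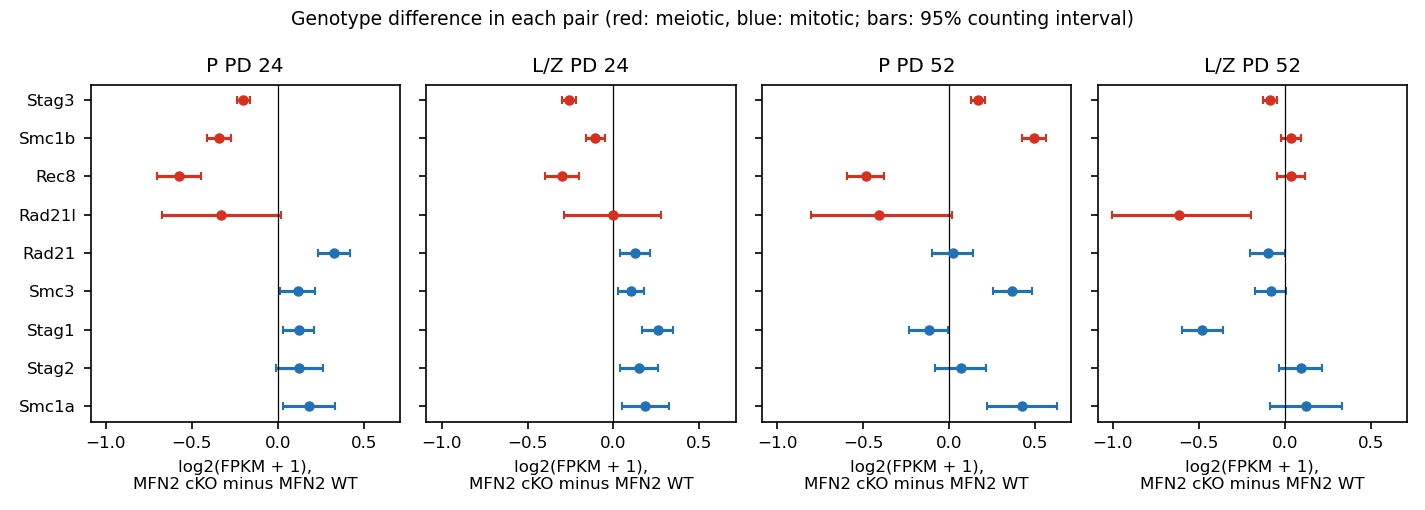
The difference in log2(FPKM + 1) between MFN2 cKO and MFN2 WT for each subunit gene in the 4 pairs of libraries, with 95% counting intervals, meiotic genes in red and mitotic genes in blue. In both PD 24 panels the red points lie at or left of 0 (down to -0.57) and the blue points right of 0 (up to 0.33), a division that the PD 52 panels lack.

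Over the 4 pairs together, limma called no genotype effect on a cohesin gene. It tested 21175 genes on log2(FPKM + 1) with the pair as a block, and called 29 of them (0.137%) at an adjusted p under 0.05, with 0 of the 9 cohesin genes among them and 0 of the 9 at an unadjusted p under 0.05. The fit on recovered reads with precision weights also called 0 of the 9. The largest mean differences were those of Rad21l (-0.34 ± 0.16, SE, n = 4 pairs; limma adjusted p = 0.747) and Rec8 (-0.33 ± 0.16; limma adjusted p = 0.764). The test of whether the genotype difference changed between PD 24 and PD 52 called 3 genes (0.0142%), again 0 of the 9. Smc1b (0.49 ± 0.32; limma adjusted p = 0.595) and Stag1 (-0.49 ± 0.27; limma adjusted p = 0.525) had the largest such changes, and all 9 had an unadjusted p of 0.12 or more. In bulk RNA, fewer cells of a type and less RNA in each cell cannot be told apart.

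Between the labelled stages, 4 cohesin genes differed, and all were lower in the P libraries. They were the meiotic Rec8 and Smc1b and the mitotic Smc3 and Stag2, so the meiotic and mitotic sets did not separate by stage. The mean log2(FPKM + 1) difference of P minus L/Z over 4 pairs was -0.89 ± 0.16 for Rec8 (limma adjusted p = 0.0081), -0.87 ± 0.15 for Smc3 (adjusted p = 0.0070), -0.76 ± 0.13 for Stag2 (adjusted p = 0.0075) and -0.65 ± 0.16 for Smc1b (adjusted p = 0.022). Each was lower in P in 4 of 4 pairs. Among all tested genes 16.0% were called lower in P, beside 4 of the 9 here, and 28.4% were called in either direction. The pairs of this comparison and of the comparison of ages are made of the same 8 libraries as the genotype pairs.

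The other 5 genes did not pass the test. Rad21l (-0.60 ± 0.20; adjusted p = 0.061) and Rad21 (-0.40 ± 0.14; adjusted p = 0.075) were lower in P in 4 of 4 pairs and passed in 2 and 1 of 13 alternative fits (lowest limma adjusted p 0.028 and 0.038), Smc1a was at -0.22 ± 0.16, and Stag3 (0.04 ± 0.16) and Stag1 (0.02 ± 0.15) lay near 0. Stag3, the partner of both meiotic kleisins, thus had no detected difference where Rec8 was lower, and its sign turned to -0.051 when libraries were scaled over genes above 1 FPKM in all. At 2-fold within a pair, 0 of the 9 genes changed in MFN2 WT at PD 24 (16.3% of all genes), 2 in MFN2 cKO at PD 24 (Rec8 and Rad21l; 20.0%), 1 in MFN2 WT at PD 52 (Smc3; 20.2%) and 1 in MFN2 cKO at PD 52 (Rec8; 24.7%). In FPKM alone, with nothing added, Rad21l (0.474 times the L/Z level) and Stag2 (0.499 times) also passed 2-fold in MFN2 WT at PD 24, as did Stag2 (0.496 times) in MFN2 cKO at PD 24.

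Smc1a and Stag2 lie on chromosome X, whose genes are known to be silenced in pachytene cells. Among 834 tested genes of that chromosome the median stage difference was -0.45 and 33.5% were called lower in P, against -0.02 and 15.2% for 20155 autosomal genes. The difference of Stag2 (-0.76) was below this median of chromosome X and that of Smc1a (-0.22) above it. On chromosome X 11.2% of the genes were called lower at PD 52 and on the autosomes 5.17%. In counts, 93 genes of chromosome X were lower and 95 higher, and 1043 autosomal genes were lower and 2418 higher.

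The calls between stages depended on single pairs and on whether a term for spermatid markers was fitted. Smc1b passed the threshold in 9 of 13 alternative fits (adjusted p 0.0070 to 0.28), Stag2 in 11 (0.0015 to 0.076), and Rec8 (0.0016 to 0.12) and Smc3 (0.0013 to 0.071) in 12. Of the 13, 1 is the repeated median-of-ratios scaling, which equals the main fit and could not differ from it. Smc1b lost its call without the MFN2 WT or the MFN2 cKO pair of PD 24 or the MFN2 cKO pair of PD 52 (limma adjusted p = 0.072, 0.075 and 0.065). Its differences there were -0.70, -0.62 and -0.71, as large as with all pairs. Stag2 lost its call without the MFN2 WT pair of PD 24 (0.051), with a difference of -0.74. A fit with additive terms for genotype, stage and age in place of the block called 4 of the 9 genes and 5388 genes in all. With the log2 summed FPKM of the spermatid markers as a further term in that fit, 0 of the 9 and 207 in all were called. The differences were then -0.94 for Smc3 (limma adjusted p = 0.071), -0.80 for Stag2 (0.076), -0.70 for Rec8 (0.12) and -0.47 for Smc1b (0.28).

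**Figure D4:**
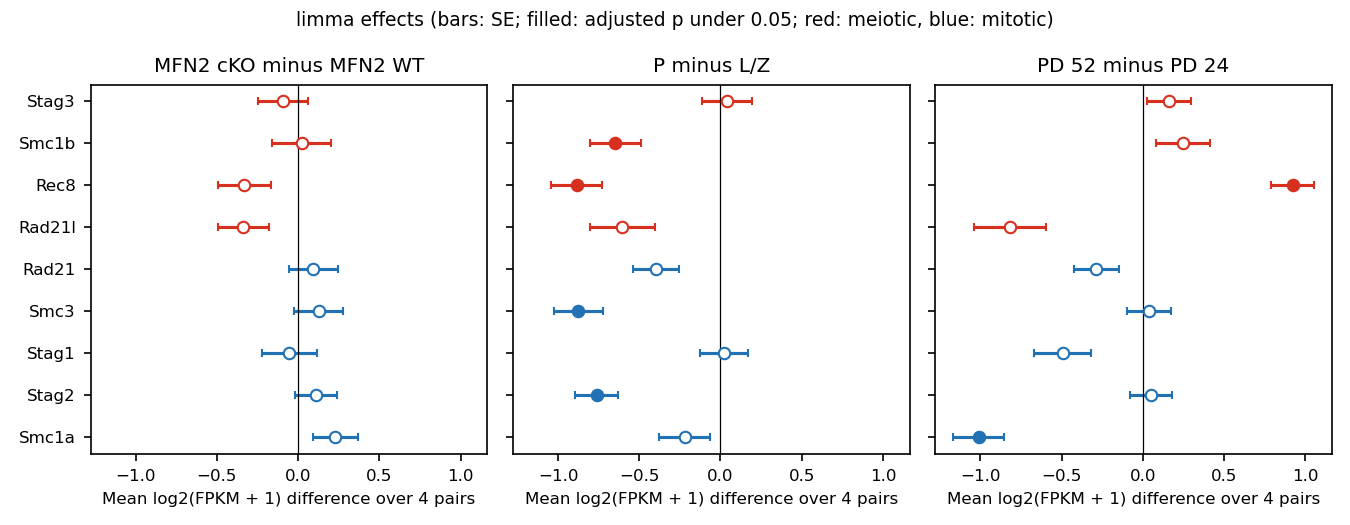
The mean difference in log2(FPKM + 1) over 4 pairs for each subunit gene from limma, for genotype, stage and age, with SE bars and filled points where the adjusted p is under 0.05. No point is filled for genotype, 4 are filled and left of 0 for stage (Rec8, Smc1b, Smc3 and Stag2), and for age Rec8 (0.92) and Smc1a (-1.01) are filled on opposite sides.

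Between the ages, Rec8 rose and Smc1a fell. Rec8 was higher at PD 52 in 4 of 4 pairs, by a mean log2(FPKM + 1) of 0.92 ± 0.13 (limma adjusted p = 0.015) and by 0.75 to 1.08 in single pairs. Smc1a was lower in 4 of 4 pairs, by a mean of -1.01 ± 0.16 (limma adjusted p = 0.016). In FPKM alone, with nothing added, the Smc1a level at PD 52 was 0.331 to 0.541 times that at PD 24. Of all tested genes 17.3% were called in this comparison, beside 2 of the 9 here. Rad21l (-0.82 ± 0.22; adjusted p = 0.052) and Stag1 (-0.49 ± 0.18; adjusted p = 0.099) were lower at PD 52 in 4 of 4 pairs and did not pass, though Rad21l passed in 3 of 13 alternative fits (lowest limma adjusted p 0.029). Nor was there a call for Rad21 (-0.29 ± 0.14, lower in 4 of 4), Smc1b (0.25 ± 0.17), Stag3 (0.16 ± 0.14), Stag2 (0.05 ± 0.13) or Smc3 (0.04 ± 0.13).

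The meiotic kleisins thus lay on opposite sides of 0 between ages, though only Rec8 passed the test. At 2-fold within a pair, 0 of the 9 genes changed in P MFN2 WT (14.6% of all genes) and in P MFN2 cKO (18.9%), 1 in L/Z MFN2 WT (Smc1a; 13.3%) and 3 in L/Z MFN2 cKO (Rec8, Smc1a and Rad21l; 31.5%). In FPKM alone the genes past 2-fold also included Smc1a in P MFN2 WT (0.405 times the PD 24 level), Rec8 in P MFN2 cKO (2.04 times), Rad21l in L/Z MFN2 WT (0.443 times) and Stag1 in L/Z MFN2 cKO (0.444 times). The call of Rec8 held in 11 of 13 alternative fits (adjusted p 0.0092 to 0.999) and that of Smc1a in 9 (0.0079 to 0.94), where again 1 of the 13 equals the main fit. Without the P MFN2 cKO pair 0 genes of the whole table were called by limma, although 5119 had an unadjusted p under 0.05, and the values were 0.90 for Rec8 (limma adjusted p = 0.088) and -1.12 for Smc1a (0.079). Without the L/Z MFN2 WT pair Smc1a also lost its call (limma adjusted p = 0.066).

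Rec8 went with the spermatid markers from library to library, but both also followed stage and age. The log2 difference by stage was -1.59 for the marker median and -0.89 for Rec8, and by age it was 2.86 and 0.92. A shared order therefore cannot tell marker content from stage and age, and a spermatid source of the Rec8 reads was not tested. In order of a rising marker sum of 105, 375, 1220, 2130, 2429, 4693, 10541 and 19545 FPKM, the Rec8 level was 12.7, 27.0, 19.3, 25.9, 33.4, 36.6, 56.7 and 58.1 FPKM. A single library, L/Z MFN2 cKO at PD 24, broke the order. In the same order Smc3 was 12.7, 25.0, 11.7, 15.0, 23.2, 11.4, 24.6 and 23.1 FPKM, and each L/Z value was above each P value. The L/Z MFN2 cKO library at PD 24 had a lower marker sum (375) than P MFN2 WT at PD 24 (1220). Its levels were 25.0 against 11.7 FPKM for Smc3, 7.05 against 3.12 for Stag2, 62.8 against 48.1 for Smc1b and 27.0 against 19.3 for Rec8. These libraries differ in stage and genotype as well, so the part of marker content was not tested. With the marker sum as a further term, in the fit with additive terms and no block, the age difference was 0.55 for Rec8 (limma adjusted p = 0.999) and -0.91 for Smc1a (0.94). That fit called 0 genes of the whole table (1060 at an unadjusted p under 0.05), and the fit of the same form without the marker sum called 4455, with 3 cohesin genes among them.

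**Figure D5:**
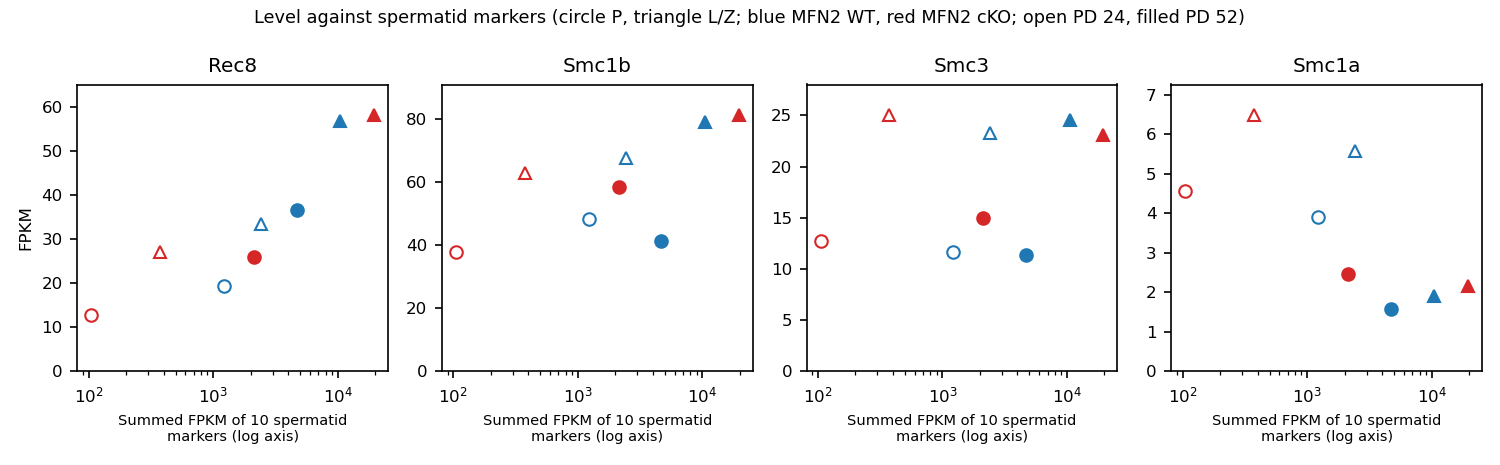
FPKM of Rec8, Smc1b, Smc3 and Smc1a against the summed FPKM of 10 spermatid markers (log axis) in the 8 libraries, with circles for P, triangles for L/Z, blue for MFN2 WT, red for MFN2 cKO, open symbols for PD 24 and filled for PD 52. Rec8 climbs from 12.7 to 58.1 FPKM along the axis with L/Z MFN2 cKO at PD 24 as the exception, while for Smc3 the triangles (23.1 to 25.0 FPKM) stand above the circles (11.4 to 15.0 FPKM) at every marker level.

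The genes that load, protect and cleave cohesin, with the related SMC complexes, gave 39 further genes, of which 37 were tested. By genotype limma called 0 of them. Between stages 8 of the 37 were higher and 2 lower in P, where 12.4% of all tested genes were called higher and 16.0% lower, so the 10 called in either direction were near the share over all genes (28.4%). Those higher in P with the smallest adjusted p were Nsmce3, a subunit of the SMC5/6 complex (log2 difference 1.26 ± 0.16; adjusted p = 0.0038), Aurkb, a kinase of the chromosomal passenger complex (0.81 ± 0.18; 0.015), Sgo2a, the shugoshin that shields centromeric REC8 (0.72 ± 0.17; 0.021), and Meikin, a meiotic kinetochore protein that acts with it (0.72 ± 0.18; 0.024). Pttg1, the securin, and Ncapd2, Ncapd3 and Nsmce4a were also higher. Ctcfl, the germline relative of the boundary factor CTCF, was lower in P (-0.97 ± 0.16; 0.0060), as was Plk1, a mitotic kinase that phosphorylates cohesin (-0.56 ± 0.16; 0.035).

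Sgo2a and Rec8 can be set side by side, since one shields the other. Sgo2a had 2.25 and 3.07 FPKM in L/Z and 4.72 and 4.99 in P at PD 24, and 1.56 and 1.03 in L/Z and 2.28 and 3.52 in P at PD 52. It was lower at PD 52 by a mean log2 of -0.64 ± 0.17 (limma adjusted p = 0.0498), where Rec8 was higher. Of the 37 tested genes of these lists, 4 were called lower at PD 52, Sgo2a among them, and 1 higher, where 17.3% of all tested genes were called in either direction. The other calls between ages were Ppp2r1a, the scaffold of the phosphatase PP2A (-0.90 ± 0.19, limma adjusted p = 0.029), Ncapd3 (-0.73 ± 0.17, 0.034) and Ncapd2 (-0.57 ± 0.14, 0.042), subunits of condensin, all lower. Eid3, a germline subunit of SMC5/6, was higher (0.44 ± 0.11, 0.042).

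Loading and release factors gave no call in any comparison. Nipbl, the loader, had 32.3 to 75.2 FPKM, and Wapl, the release factor, 32.1 to 50.6 FPKM. Esco2, the acetyltransferase that locks cohesin on chromatin, had 6.39 and 7.13 FPKM in L/Z at PD 24 and 1.36 to 3.58 in the other libraries, without a call (age -0.83 ± 0.27, adjusted p = 0.084). By list, the calls between stages were 0 of 6 for loading and release, 0 of 2 tested for the acetylation cycle, 5 of 12 for protection and cleavage, 1 of 2 for loop boundaries, 2 of 8 for condensin and 2 of 7 for SMC5/6, beside 28.4% of all tested genes.

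Of the genes of other function, those whose pattern was most like the mean of the 4 meiotic subunits over the 8 libraries were Gpr153 (Pearson r = 0.976), Tmx4 (0.973), Phka2 (0.971), Tent5b (0.967) and Bap1 (0.963), the top 5 of 9178 protein-coding genes with FPKM above 5 in at least 1 library. Among the cohesin genes themselves Smc3 and Stag2 were most alike (r = 0.980), followed by Smc3 and Smc1b (0.885) and Smc1b and Stag2 (0.845). Rec8 and Rad21l, both meiotic kleisins, had r = -0.079. These values describe 8 libraries that share stages, genotypes and ages, and carry no test.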

How the data were processed

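RNA had been extracted from purified spermatocytes and sequenced as paired-end reads, and 8 libraries, 1 for each group, were used with all their columns. The deposited FPKM values were made by the authors with Novomagic; the aligner and annotation are not given in the sources used here, except that the submitters' processing notes name CASAVA 1.4 and Bowtie 0.12.2 and the builds mm8 and mm9. Coordinates follow GRCm38, where 98.1% of genes had the positions that GENCODE mouse release 21 gives. The deposited gene lengths are in bases. FPKM multiplied by gene length came out as whole reads (within 0.02 of a read) for 100% of values above 0, which gave the reads behind each value and showed that libraries were already scaled by median-of-ratios when the authors deposited them.

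The effects of genotype, stage and age, and the genotype by age interaction, were fitted with limma 3.58.1 in R 4.3.3 on log2(FPKM + 1), for genes that exceeded 1 FPKM in 1 library or more. The 2 libraries that differ only in the factor formed a block, giving 4 blocks, and an empirical Bayes prior with a trend was used. A call is a Benjamini-Hochberg adjusted p under 0.05. The interaction was fitted on the same pairs. Within a pair no test was made, and the exact binomial (Clopper-Pearson) 95% interval of the reads covers counting error only, since reads made by PCR and not tagged by molecule are not independent. Nothing in the labels says that libraries came from separate animals, so p-values measure the spread between these libraries. The fit was tested on simulated data. Other software was Python 3.11.15, numpy 2.4.6, pandas 2.3.3, scipy 1.17.1 and matplotlib 3.10.9.

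The 9 subunit genes, the lists of cohesin regulators and the lists of cell type markers were chosen with earlier results of these data known. The genes named are the 9 subunits, Mfn2, the called regulators (up to 6 for each effect by adjusted p, the others by name only), Sgo2a, Wapl, Nipbl and Esco2, and the 5 genes most like the mean of the meiotic subunits. Alternatives tried were adding 0.1 in place of 1, all genes without a filter on FPKM, another round of median-of-ratios scaling, no block, a single prior variance, recovered reads with precision weights and each pair left out in turn, and for ratios geometric means or the top subunit of each set left out. A scaling by median-of-ratios over 11566 genes above 1 FPKM in all libraries, a scaling to total reads, a spermatid marker term and ratios without Smc3 were chosen after seeing the data. The spermatid marker term was fitted with additive terms for genotype, stage and age and without the block.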

Additional observations from a re-analysis of the deposited data

Results flagged for a closer look

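The genotype difference of 2 cohesin genes went one way in both PD 24 pairs and the other way in both PD 52 pairs. For Smc1b the mean log2(FPKM + 1) difference of MFN2 cKO minus MFN2 WT was -0.22 at PD 24 and 0.26 at PD 52, a change of 0.49. With libraries scaled to total reads the L/Z pair at PD 52 turned to -0.063, so that Smc1b no longer moved one way in both pairs of that age. The corresponding values of Stag1 were 0.19, -0.30 and -0.49. The limma test of the change did not pass for either gene, with an unadjusted p of 0.18 and an adjusted p of 0.595 for Smc1b, and 0.12 and 0.525 for Stag1. With 1 library in each group, no group could be searched for a sample that stands apart.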

How the results depend on the processing

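The pair left out, the spermatid marker term and the FPKM filter each moved counts of calls by over 1.5 times, and the depth of Rad21l (22 to 154 reads) and Smc1a (146 to 663 reads) limits their values within a pair. The cause of the shifts listed here was not tested. The labels give no replicate numbers that could serve as a block, so the block of each fit was the pair of libraries that differ only in the factor tested. The repeated median-of-ratios scaling gave a factor of 1 for every library and left all values as they were, so it could not change a call. The scaling over genes above 1 FPKM in all libraries moved the median stage difference of all genes to -0.11, and the scaling to total reads moved the median age difference to -0.15, so differences under these scalings are relative to those shifts.

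Leaving out a pair in turn, the genotype effect called 0 to 2 genes (29 with all pairs), the interaction 0 to 0 (3 with all pairs, and 938 to 3775 unadjusted without one), the stage effect 2369 to 5953 (6013) and 2 to 4 of the cohesin genes (4), and the age effect 0 to 4905 (3669) and 0 to 3 of the cohesin genes (2). Across such fits some small, uncalled differences changed sign. The range was -0.14 to 0.14 for Smc1b and -0.16 to 0.086 for Stag1 by genotype, -0.016 to 0.13 for Stag3 and -0.080 to 0.088 for Stag1 by stage, -0.023 to 0.085 for Smc3 by age, and for the interaction -0.051 to 0.47 for Rec8, -0.19 to 0.26 for Smc3 and -0.059 to 0.24 for Smc1a.

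With 0.1 added in place of 1, 7 genes were called by genotype and 74 by the interaction. Without the FPKM filter the calls were 0 by genotype (2099 at an unadjusted p under 0.05), 3010 by stage, 791 by age and 0 by the interaction (3316 unadjusted), and 1 cohesin gene remained called by age. Without the block, 3 genes were called by genotype and 1 by the interaction, with a single prior variance 18 and 0 (2582 unadjusted), and on recovered reads with precision weights 114 and 624. The interaction called 0 genes under the scaling over genes above 1 FPKM (2774 unadjusted) and under that to total reads (3005). With the spermatid marker term, also fitted without the block, 5 genes were called by genotype, 207 by stage and 0 by age (1060 unadjusted), and 0 cohesin genes by stage and by age. The fit of that form without the term called 3, 5388 and 4455 genes, with 4 cohesin genes by stage and 3 by age. The number of cohesin genes called by stage rose to 5 on recovered reads with precision weights (Rad21l added) and to 6 under the scaling over genes above 1 FPKM (Rad21l and Rad21 added).

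Signs of uncalled genes also turned under single settings. With the spermatid marker term these were Stag3 (0.0053) and Rad21 (-0.027) by genotype, Stag1 (-0.27) by stage, and Stag3 (-0.057), Smc1b (-0.097) and Stag1 (0.089) by age. With the scaling over genes above 1 FPKM they were Stag3 (-0.051) and Stag1 (-0.054) by stage and Stag2 (0.0059) in the interaction. With the scaling to total reads they were Stag3 (-0.040), Smc3 (-0.16) and Stag2 (-0.12) by age and Smc3 (-0.089) and Smc1a (-0.012) in the interaction. In single pairs that scaling turned Stag3 between stages in MFN2 WT at PD 24 (-0.056), and between ages Stag3 and Smc1b in L/Z MFN2 WT (-0.077 and -0.067) and in L/Z MFN2 cKO (-0.0031 and -0.022).

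The log2 ratio of meiotic to mitotic subunits kept its sign throughout. In the order L/Z MFN2 WT, L/Z MFN2 cKO, P MFN2 WT and P MFN2 cKO it was 1.61, 1.25, 2.04 and 1.52 at PD 24, and 2.04, 2.11, 2.23 and 2.21 at PD 52. With geometric means it was 1.60, 1.25, 1.65 and 1.04, then 1.98, 1.82, 1.97 and 1.62. Without the most abundant subunit of each set it was 1.34, 1.01, 1.46 and 0.89, then 1.91, 2.04, 1.86 and 1.71. Without Smc3 it was 2.23, 1.85, 2.49 and 1.93, then 2.77, 2.86, 2.75 and 2.85.

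With 0.1 added, the genes changed 2-fold between genotypes numbered 2330 (P) and 3125 (L/Z) at PD 24 and 3364 and 2683 at PD 52. Between stages there were 5177 (PD 24) and 5797 (PD 52) in MFN2 WT, with 5506 and 6934 in MFN2 cKO, and between ages 4118 in P MFN2 WT, 5198 in P MFN2 cKO and 4294 in L/Z MFN2 WT.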
